A study of Ailuropoda melanoleuca with 25 samples.

Results

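The comparison set 2 RNA-seq libraries made at day 8 of the first reprogramming stage (stage I day 8) against 4 libraries of giant panda primary fibroblasts (PF), 2 under the label LB PF and 2 under the label XR PF. The 6 libraries were chosen by sample title out of 25 in the series, which follows fibroblasts on their way to induced pluripotent stem cells (GPiPSC) after delivery of episomal vectors that do not integrate. The labels name primary fibroblast cells as the source of all 6 libraries and record no genotype, age or sex for them. They do not spell out LB and XR, do not list the vector-borne factors, and do not say whether the day 8 cells came from LB or XR fibroblasts. Whether the replicates of a group are independent cultures is not stated in the labels. Every p-value therefore refers to variation among libraries alone, and that variation may be technical. In the main fit the spread was estimated over all 25 libraries of the series in 12 groups, not over these 6 alone. If the PF libraries vary more than the other groups, that shared spread is too small for them, which was not tested. The labels give no fibroblasts cultured for 8 days without vectors, so time in culture, medium and reprogramming factors cannot be told apart in this contrast. In these bulk libraries a change in the share of a cell type and a change in RNA per cell cannot be told apart either.

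Fibroblasts are the connective tissue cells that lay down collagen-rich extracellular matrix, and they are a common starting cell for reprogramming. Episomal vectors are DNA circles that express the reprogramming factors without entering the chromosomes and are diluted as cells divide. In mouse and human cells the first phase of reprogramming is known for loss of the somatic gene programme and for a shift from mesenchymal toward epithelial features, while most of the pluripotency network comes on later. Genes in the tables are numbered gene models, given as a scaffold and a number along it, with no gene name. Fibroblast, epithelial and pluripotency markers could therefore not be located, and neither the fibroblast label nor any named pathway could be checked against these values.

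The 4 PF libraries held 8627983 to 14890260 estimated counts and the day 8 libraries 12840244 and 13870366. Levels are given as CPM, the count scaled to library size, after TMM normalization, and at these depths 3 counts in a library correspond to 0.242 to 0.376 CPM. The day 8 replicates were the most alike, with a Pearson correlation of log2 CPM of 0.981 across 17225 models, against 0.944 for LB PF and 0.960 for XR PF. A difference of over 2-fold between replicates was seen for 11.2% of models at day 8, 29.2% in LB PF and 25.5% in XR PF. XR PF replicate 2 stood apart from the other fibroblast libraries in lying closer to day 8, with correlations of 0.905 and 0.919 to the day 8 replicates. The other 3 PF libraries had correlations of 0.802 to 0.874 with them. Counts of calls and several results in which this library stands out are therefore also given without it.

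By day 8 about as many gene models stood above the fibroblast level as below it, and together they made up 8889 of the 17225 models tested (51.6%). Of these, 4471 were higher (26.0%) and 4418 were lower (25.6%) at stage I day 8 than the mean of LB PF and XR PF, in edgeR's quasi-likelihood test at an adjusted p below 0.05. Without day 8 replicate 1 the total was 4741, and with only these 6 libraries in the fit it was 4232. The median log2 fold change was 1.57 among the models that rose and -1.58 among those that fell. At over 2-fold, 3416 models rose (19.8%) and 3539 fell (20.5%). The largest changes were more often increases: 1713 rose and 1439 fell by over 4-fold, and 1072 rose and 477 fell by over 8-fold. Of the 1713, 29.6% to 41.0% reached 1 CPM in a given PF library, where 75.7% to 78.6% of all models did. Many of these increases are therefore measured against levels near the floor. Of the 1439, 57.3% and 68.2% still reached 1 CPM in the day 8 libraries. The even split holds on the TMM scale, which centers the bulk of models near 0, so it is partly set by the scaling. The median of all models was 0 there, and offsets for effective length under TMM gave 4442 higher and 4389 lower. TPM, the authors' abundance scaled to transcript length and library total, was used without TMM factors. Limma on log2(TPM + 1) called 2506 higher and 6181 lower, which makes 28.8% of calls higher against 50.3% by edgeR. The median of all models was then -0.29. On that scale 98.1% of the models called lower by edgeR were called lower again, and 56.0% of those called higher were called higher again.

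**Figure D1:**
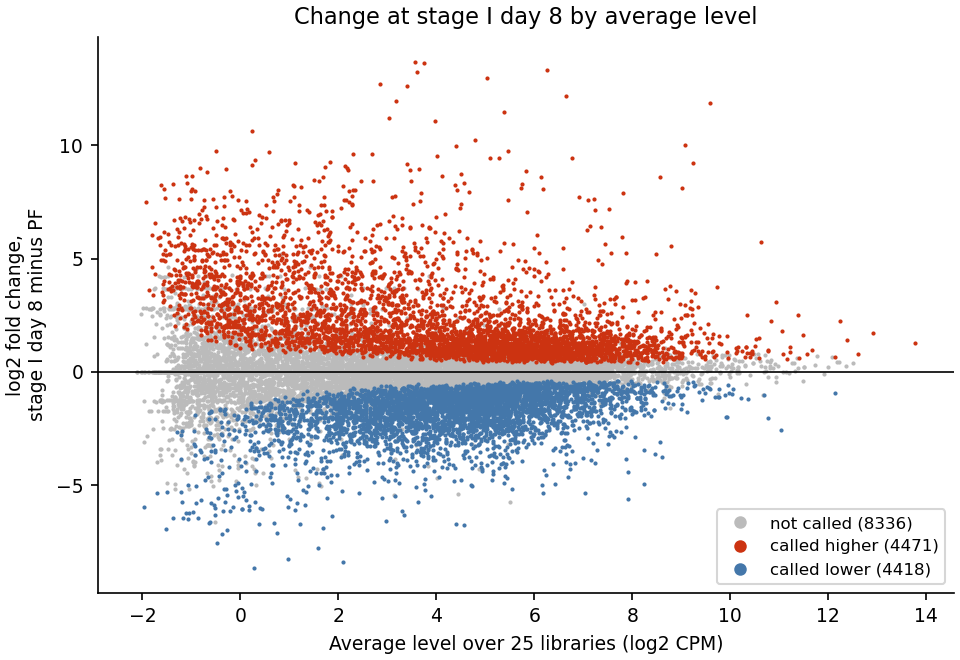
Log2 fold change of stage I day 8 minus PF (vertical axis) against the average level over 25 libraries (horizontal axis, log2 CPM), 1 point per gene model, red for the 4471 models called higher, blue for the 4418 called lower and grey for the 8336 not called. Changes of over 8-fold lie more often above 0 (1072 models) than below it (477 models). In every PF library most of the models over 4-fold higher were under 1 CPM, which limits this reading.

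The direction of change differed with the level of the model. Among the 20% of models with the lowest average level 23.1% rose and 7.90% fell, and in the middle class of 5 by level 21.5% rose and 36.1% fell. Among the 20% with the highest level 35.3% rose and 24.2% fell. In that highest class the median log2 difference was 0.40 for day 8 minus LB PF and 0.06 for day 8 minus XR PF. For XR PF replicate 2 minus replicate 1 it was 0.41. The shares by level were not computed without XR PF replicate 2. The lowest class ran from -2.12 to 0.996 in average log2 CPM, where few counts are left for a fall to be called. The 10 most abundant models also held a larger share of counts at day 8, at 13.2% and 13.6%, against 8.52% to 11.1% in the PF libraries. In TPM, which corrects for length, the top 10 held 10.8% and 12.2% at day 8 and 9.56% to 16.1% in PF, so the groups overlapped on that scale.

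Model by model, both day 8 libraries lay above all 4 PF libraries for 4183 models (24.3%) and below all 4 for 3736 (21.7%). Of these, 3691 and 3304 also passed the test in that direction. Without XR PF replicate 2, 5457 models lay above and 5151 below the remaining 3 PF libraries. The ranges of the groups overlapped for 780 of the models called higher and for 1114 of those called lower.

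Among abundant models, the changes with the largest difference in CPM were in evm.model.HIC_ASM_13.784 and evm.model.HIC_ASM_0.28 among those that rose and in evm.model.HIC_ASM_15.1231 and evm.model.HIC_ASM_14.1067 among those that fell. All 4 were named by one rule, which required both day 8 libraries to lie outside the PF range, so the separation of their groups is part of the choice. Coding lengths, which are the deposited model lengths in bases, were 4329 and 3126 for the first pair and 17742 and 1083 for the second. Their proteins are not known from the tables.

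The model evm.model.HIC_ASM_13.784 was the most abundant of the 4 and took 3.98% and 3.92% of all counts at day 8. Its level was 20741 and 5849 CPM in LB PF, 38528 and 52768 in XR PF, and 64019 and 56444 at day 8. The LB PF libraries were the lowest and XR PF replicate 2 came close to day 8. The model was already the most abundant in LB PF replicate 1 and in both XR PF libraries. Against both fibroblast labels together the model rose by 1.29 ± 0.36 (log2, SE; edgeR adjusted p = 0.00689). Nearly all of that was against LB PF, at 2.18 (adjusted p = 8e-04), while the log2 difference from XR PF was 0.40 ± 0.43 (SE; adjusted p = 0.496). Without XR PF replicate 2 the log2 fold change against PF was 1.41 (adjusted p = 0.00587). The fibroblast labels themselves differed for this model, LB PF minus XR PF being -1.78 on the log2 scale (adjusted p = 0.0127). In TPM its level at day 8, 4547 and 4632, lay below both XR PF libraries, at 4901 and 4701, so its direction against XR PF turned with the scaling. The call against PF was lost without day 8 replicate 1 (edgeR adjusted p = 0.0657), and in 4 other settings given with the processing.

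The model evm.model.HIC_ASM_0.28 stood at 5095 and 1982 CPM in LB PF, 5500 and 9025 in XR PF, and 27460 and 20136 at day 8. Its level in all 4 fibroblast libraries lay below that in the lower day 8 library. It rose by 2.23 ± 0.33 (log2, SE; edgeR adjusted p = 3.73e-05), by 2.75 against LB PF (adjusted p = 6.69e-05) and by 1.71 against XR PF alone (adjusted p = 0.00378). Its level was 11605 and 11226 CPM at control day 16, 6758 and 4834 at stage I day 24, and 3182 and 4031 at stage II day 8. The model was chosen for its rise at day 8, so lower values elsewhere are not read as a decline. In the LB GPiPSC and XR GPiPSC libraries it was at most 2.89 CPM.

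The model evm.model.HIC_ASM_15.1231 had 8565 and 14365 CPM in LB PF, 9094 and 4928 in XR PF, and 1293 and 1703 at day 8. XR PF replicate 2 was the lowest fibroblast library. The model fell by 2.58 ± 0.55 on the log2 scale (SE; edgeR adjusted p = 0.000908). With a correction for coding length the log2 fold change was -1.80 (adjusted p = 0.00404), and against XR PF replicate 2 alone it was -1.73 and missed the threshold (adjusted p = 0.0581). Without that library it was -2.77 (adjusted p = 0.000372).

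The model evm.model.HIC_ASM_14.1067 had 3183 and 10527 CPM in LB PF, 4935 and 5370 in XR PF, and 1479 and 1394 at day 8. The LB PF replicates were far apart and the day 8 replicates close together. It fell by 2.05 ± 0.39 on the log2 scale (SE; edgeR adjusted p = 0.000655). Its level was 2315 and 2616 CPM at stage I day 24 and stood at 236.1 and 219.4 CPM at stage II day 8. In the LB GPiPSC libraries it was at 0 counts.

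**Figure D2:**
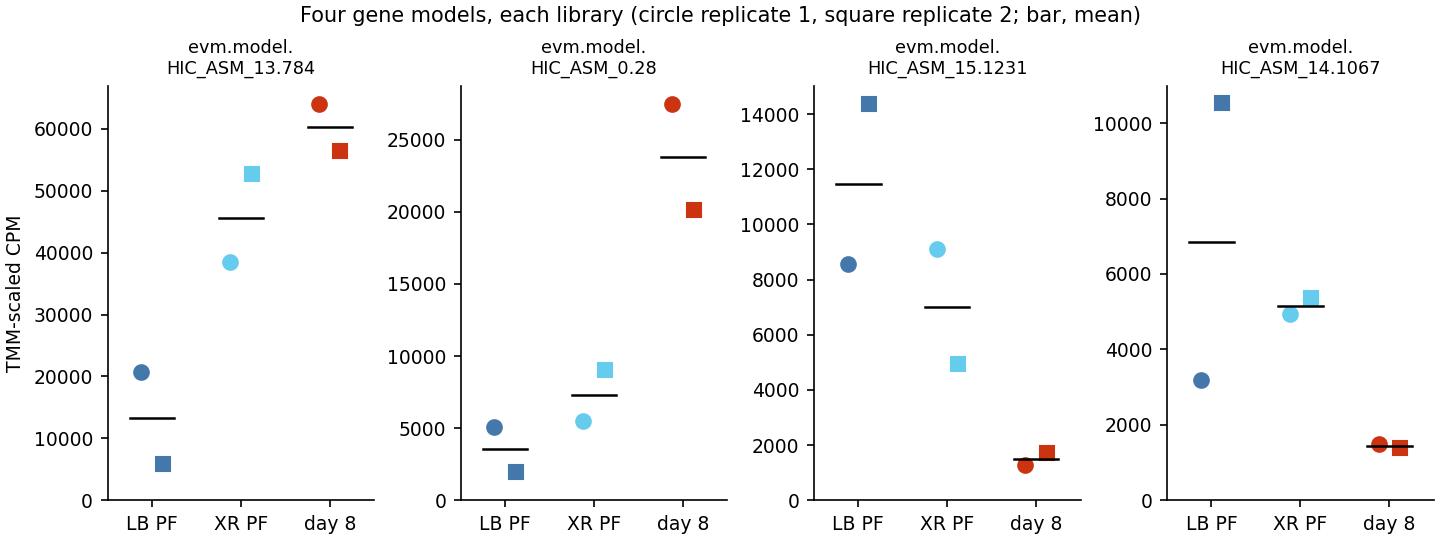
TMM-scaled level in CPM (vertical axes, each from 0) of the 4 models in the LB PF, XR PF and stage I day 8 libraries, with circles for replicate 1, squares for replicate 2 and bars for the mean of 2. The model evm.model.HIC_ASM_13.784 in XR PF (38528 and 52768 CPM) is close to day 8 (64019 and 56444 CPM), while evm.model.HIC_ASM_0.28 in both PF labels stays at or below 9025 CPM.

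Some models went from the floor to at least 1 CPM, most of them to a low level, and others the reverse way. At day 8, 233 models had at least 1 CPM in both libraries and no more than 3 counts in any PF library, and 44 of these had 0 counts in all 4. Their mean level at day 8 ran from 1.02 to 674 CPM with a median of 2.82, 37 of them reached 10 CPM and 7 reached 100 CPM. The reverse, at least 1 CPM in all 4 PF libraries and no more than 3 counts in either day 8 library, held for 36 models, whose median fibroblast level was 4.33 CPM and whose highest was 19.7. The 2 lists differ in how many libraries must pass, 2 for the first and 4 for the second, so their sizes are not on a common footing. With a floor of 10 counts the lists held 547 and 277 models, and when 5 CPM was asked for in place of 1 CPM they held 59 and 3. The second list was sensitive to single libraries, with 180 models without day 8 replicate 2, 72 without XR PF replicate 2 and 55 without LB PF replicate 2, while the first held 271 without XR PF replicate 2. Fewer libraries then had to pass.

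The most abundant model of the first list had 3, 0, 2 and 1 counts in the PF libraries and 728 and 620 CPM at day 8. Against a floor of 3 counts per library that is at least 2385-fold higher. The next had 0 to 2 counts in the PF libraries and 404 and 399.5 CPM at day 8, at least 1421-fold higher, and the third had 0 to 3 counts and 203 and 418 CPM, at least 1099-fold higher. The highest of these 3 has a coding length of 330 bases and the others 1221 and 1539.

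Of the newly detected models, more reached 1 CPM in the intermediate groups than in the established lines. Of the 233, 130 (55.8%) had at least 1 CPM in both control day 16 libraries, 110 (47.2%) in both stage I day 24 libraries and 87 (37.3%) in both stage II day 8 libraries. Of all models tested, 81.0%, 79.5% and 74.8% did. The numbers were 59 of 233 (25.3%) in LB GPiPSC, where 3 libraries had to pass, and 71 (30.5%) in XR GPiPSC, against 73.9% and 78.1% of all models. Of the 36 models lost at day 8, 13 had at least 1 CPM in both stage I day 24 libraries and 10 in both stage II day 8 libraries. In XR GPiPSC 18 of them reached 1 CPM in both libraries. Both lists were chosen by their day 8 and PF levels, so different shares in other groups are partly built into the choice. These shares are therefore not read as persistence or return.

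The size of the day 8 response depended on which fibroblasts served as the reference. Against LB PF alone 9180 models were called (53.3%), 4585 higher and 4595 lower. Against XR PF alone 6327 were called (36.7%), 2851 higher and 3476 lower. These contrasts share the day 8 libraries, and the test of their difference is the contrast of LB PF with XR PF, in which 2501 models passed (14.5%). Of those, 869 were higher in LB PF and 1632 higher in XR PF. With only the 6 libraries in the fit, the counts against LB PF, against XR PF and between the labels were 4590, 1883 and 265. Without day 8 replicate 1, 5867 models were called against LB PF and 2743 against XR PF. On log2(TPM + 1), 32.6% of the calls against LB PF and 30.2% of those against XR PF were higher, in place of 49.9% and 45.1% by edgeR.

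Much of the difference between the references went with XR PF replicate 2. Among the 8889 models called against all PF, it was the fibroblast library nearest to the day 8 mean for 5595 (62.9%), against 1371 for LB PF replicate 2, 1233 for LB PF replicate 1 and 690 for XR PF replicate 1. Set against XR PF replicate 2 alone, 3505 models were called, 1737 higher and 1768 lower, whereas each of the other 3 PF libraries alone gave 8737 to 9425. Without XR PF replicate 2 the contrast with all PF gave 9743 calls and that with XR PF gave 7685. Without XR PF replicate 1 these counts were 7203 and 2691. Between LB PF and XR PF, 1025 models were called without XR PF replicate 2, 4720 without XR PF replicate 1, 4539 without LB PF replicate 1 and 1474 without LB PF replicate 2.

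The position of the XR libraries was also read on models chosen by the contrast of day 8 with LB PF, which XR PF entered only through the shared scaling, filter and estimate of spread. For 3900 models called and over 2-fold higher at day 8 than in LB PF, with LB PF set to 0% and day 8 to 100% on the log2 scale, the mean of XR PF replicate 1 over these models was at 23.5% and that of replicate 2 at 43.5%. For the 3968 models lower than LB PF by the same rule, the mean of replicate 1 was at 8.30% and replicate 2 at 58.4%. Across all models the difference between the XR replicates (2 minus 1) had a Pearson correlation of 0.55 and a Spearman correlation of 0.60 with day 8 minus LB PF. No library is shared between those quantities. Models are not independent replicates, and what set XR PF replicate 2 apart was not tested.

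As a description, the 6 libraries were divided into a pair of contrasts that share none. Both set a day 8 replicate against fibroblasts, and the replicates may be technical, so agreement between the contrasts is not replication. Day 8 replicate 1 minus LB PF and day 8 replicate 2 minus XR PF had a Pearson correlation of 0.74 and a Spearman correlation of 0.72 across 17225 models. Of 4942 models over 2-fold higher in the first contrast, 88.6% were above 0 in the second, where 47.8% of all models were. Over 2-fold higher in the second were 46.4% of them, against 17.5% of all models. Of 4718 models over 2-fold lower in the first, 89.1% were below 0 in the second and 41.7% were over 2-fold lower there, against 15.5% of all models. With the day 8 replicates exchanged the Pearson correlation was 0.77, and 60.5% of the models higher and 68.9% of those lower in the first contrast passed 2-fold the same way in the second, where 21.5% and 23.7% of all models did.

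**Figure D3:**
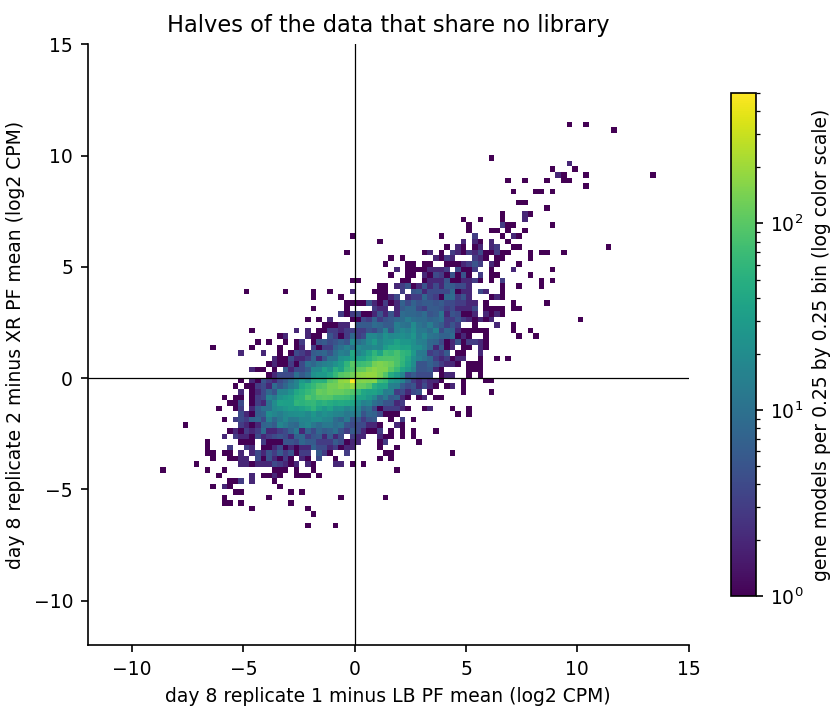
Log2 difference of day 8 replicate 2 minus the XR PF mean (vertical axis) against day 8 replicate 1 minus the LB PF mean (horizontal axis), color giving the number of gene models per bin of 0.25 by 0.25 on a log color scale. The cloud runs from lower left to upper right (Pearson correlation 0.74) and is flatter than the diagonal, the median in the second contrast being 0.90 for models over 2-fold higher in the first.

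A smaller set of models was called the same way in 21 of the 22 settings tried. The test against a 2-fold change, which asks for a larger effect, was left out. Over these 21 settings, the main one included, which change scaling, filter, tool, unit, libraries, single reference library or length correction, 1099 models (6.38% of those tested) were called higher and 696 (4.04%) called lower every time. The higher set had a median log2 fold change of 3.26, with 883 over 4-fold and 602 over 8-fold. The lower set had a median of -2.34, with 427 over 4-fold and 211 over 8-fold. For 165 of the 1099 and 29 of the 696, no library on the low side had more than 3 counts. The test against a 2-fold change also called 1049 of the 1099 and 607 of the 696. Every one of the settings uses some of the same libraries, so agreement among them is not replication.

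In the remaining groups of the series, which had no part in choosing these sets other than through the shared scaling, filter and estimate of spread, the higher set stayed partly raised until stage II and was near the fibroblast level in the GPiPSC lines. Its median log2 difference from the PF mean was 3.18 and 3.05 in the day 8 libraries. It was 1.77 and 1.73 at control day 16, 1.79 and 1.33 at stage I day 24, and 0.99 and 1.13 at stage II day 8. In LB GPiPSC it lay between -0.17 and -0.07, and in XR GPiPSC it was -0.13 and -0.09. The median of the lower set was -2.47 and -2.03 at day 8, -1.07 and -1.08 at control day 16, -1.31 and -0.64 at stage I day 24, and -1.39 and -1.66 at stage II day 8. In LB GPiPSC and XR GPiPSC it ran from -0.38 to -0.30. At day 16 with A83-01, an inhibitor of TGF-beta type I receptors, the higher set had medians of 1.39 and 1.45 and the lower set -0.48 and -0.73. Both sets were chosen for their difference between day 8 and PF, so their distance from PF at day 8 is part of the choice. Smaller values in other groups are therefore not read as a decline from day 8. A median near 0 can hold models far above and far below the fibroblast level, so it does not show that single models returned to that level.

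**Figure D4:**
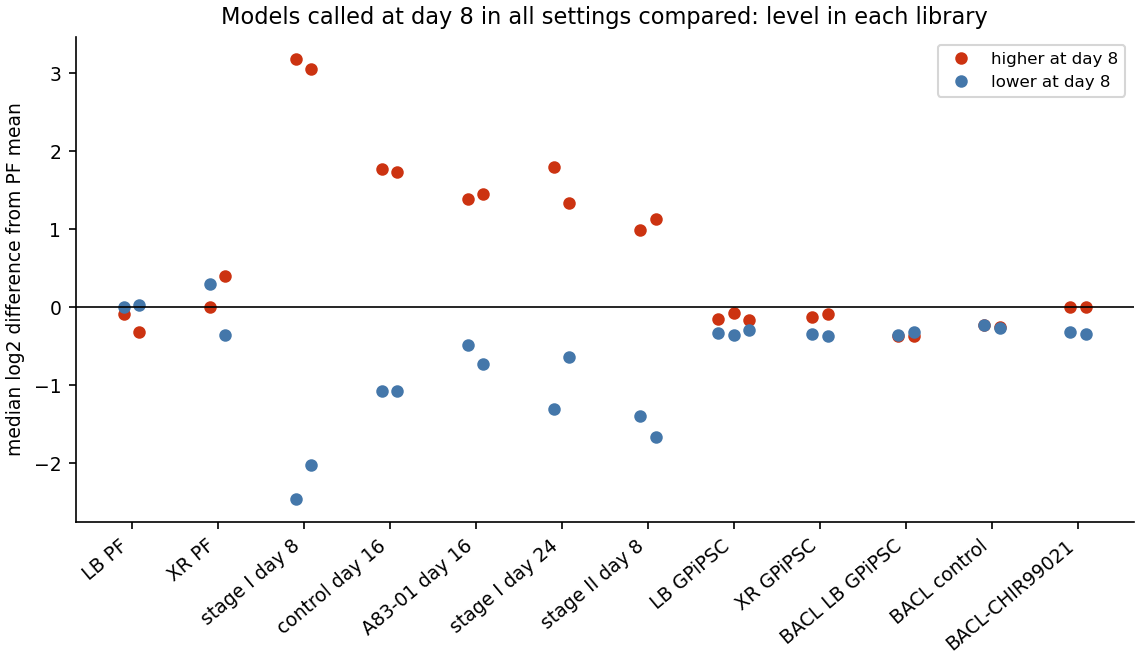
Median log2 difference from the PF mean (vertical axis) of the 1099 models called higher (red) and the 696 called lower (blue) at day 8 in all 21 settings, 1 point per library, by group (horizontal axis). The sets were chosen for their difference at stage I day 8. That they are farthest apart there (3.18 and 3.05 against -2.47 and -2.03) is part of the choice. They are closer in the day 16, day 24 and stage II groups, and near each other in the GPiPSC and BACL groups.

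Models with long coding sequences were more often lower than higher at day 8. In the longest of 10 length classes (2955 to 20340 bases) 41.4% of models fell and 19.4% rose, and the median log2 change was -0.51. In the shortest class (126 to 414 bases) 17.7% fell and 25.4% rose, and in the fourth (786 to 972 bases) 19.6% fell and 29.5% rose (median 0.17). A gradient of the same shape ran between replicates: in the longest class the median of XR PF replicate 2 minus replicate 1 was -0.49 and that of day 8 replicate 1 minus replicate 2 was -0.20. The LB PF replicates also differed with length, replicate 1 minus replicate 2 being 0.21 in the longest class and 0 in the shortest. The sign of such a difference depends on the order of the replicates. Against XR PF replicate 2 alone the median of the longest class was -0.13, and against PF without that library it was -0.60. With a correction for the length trend in each library 4026 models were called higher and 4782 lower, close to the 8889 calls without it. The part of library quality in the length gradient was not tested. In the sets called in all 21 settings, the share of models called lower was 1.91% in the shortest class and 6.38% in the longest. The share called higher was 5.09% in the shortest class, 8.31% in the seventh and 4.35% in the longest. Those settings include that correction, but the sets also had to pass the settings without it. These shares therefore cannot show whether the gradient outlasts the correction.

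**Figure D5:**
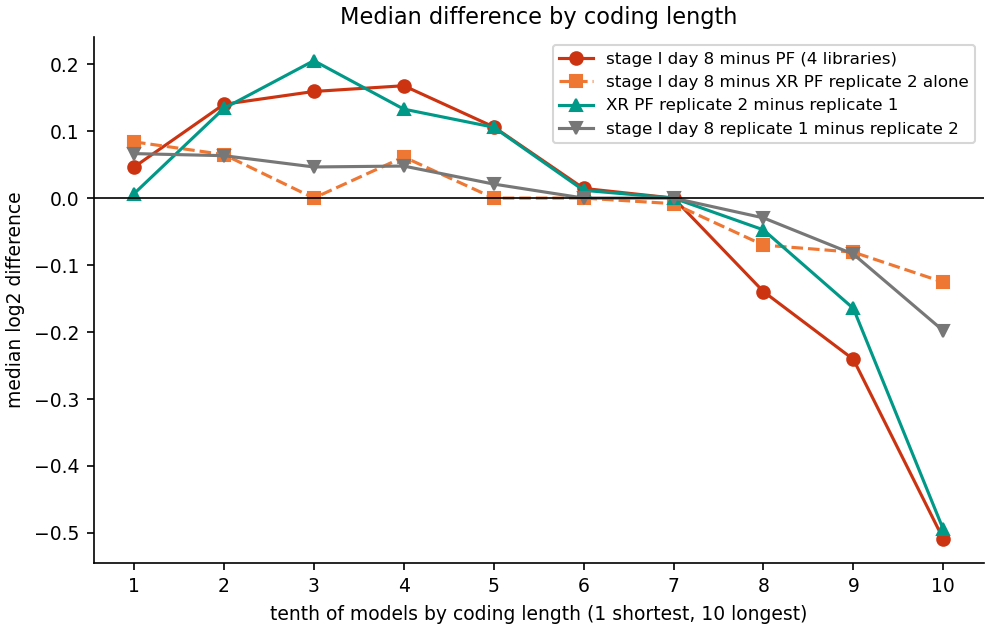
Median log2 difference (vertical axis) in each of 10 classes of gene models by coding length (horizontal axis, 1 the shortest), for day 8 minus all 4 PF libraries, for day 8 minus XR PF replicate 2 alone, and for 2 differences between replicates. The difference between the LB PF replicates is not drawn. In the longest class day 8 minus PF (-0.51) and XR PF replicate 2 minus replicate 1 (-0.49) nearly coincide, and day 8 minus XR PF replicate 2 is -0.13.

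Changes were spread over all 21 scaffolds with at least 100 tested models, with some tilt. On scaffold HIC_ASM_16, 35.1% of 1346 models rose and 16.3% fell, and on HIC_ASM_15, 32.0% of 925 rose and 21.0% fell. On HIC_ASM_4, 19.4% of 863 rose and 33.3% fell. Over all models tested 26.0% rose and 25.6% fell. XR PF replicate 2 minus replicate 1 had medians of 0.35 on HIC_ASM_16 and -0.16 on HIC_ASM_4, the same directions as day 8 minus PF (0.35 and -0.25). LB PF replicate 1 minus replicate 2 had medians of 0.29 on HIC_ASM_16 and -0.03 on HIC_ASM_4. Without XR PF replicate 2, 39.2% rose and 17.8% fell on HIC_ASM_16, and 20.2% rose and 34.9% fell on HIC_ASM_4.

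Changed models stood both alone and beside others that changed the same way. Of the 3416 models over 2-fold higher, 1573 had no tested neighbour called and over 2-fold changed in the same direction, and this held for 1658 of the 3539 over 2-fold lower. Runs of 5 or more neighbours changing together numbered 36 upward, holding 208 models, and 30 downward, holding 175. Of all models tested, 19.8% were called and over 2-fold higher and 20.5% over 2-fold lower. The numbers of lone models and runs to be met at these shares were not computed. The counts are therefore not read as grouping or as its absence.

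The longest run, of 11 models on HIC_ASM_6 (numbers 1474 to 1490), had its middle log2 change at -2.23, and all 11 fell. Its model with the longest coding sequence (9774 bases) had 388.6 and 704 CPM in LB PF, 442 and 164 in XR PF, and 17.3 and 31.6 at day 8. The median level of the 11 models was 12.4, 11.8, 12.7 and 4.83 CPM in the PF libraries and 1.13 and 3.32 CPM at day 8. In 8 of the 11 both day 8 libraries lay below all 4 PF libraries, as did 21.7% of all models. The run was chosen for its decrease, so nothing is read from that count. For the other 3, XR PF replicate 2 reached into the day 8 range.

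Among the upward runs of at least 6 models, 3 had a median log2 fold change of over 5 and were chosen after their values were seen. On HIC_ASM_8 (numbers 231 to 242) the median level was 0.093 to 0.246 CPM in the PF libraries, where 4 of the 7 models had no more than 3 counts, and 404 and 399.5 CPM at day 8. These day 8 medians equal the levels of the second most abundant newly detected model above, so they are not a separate result. Taken library by library, the highest level in that run was 1422 and 957 CPM at day 8 and at most 84.4 CPM in PF. On HIC_ASM_7 (numbers 2064 to 2072) 6 of the 7 models had no more than 3 counts in every PF library, and the median at day 8 was 15.4 and 14.7 CPM. On HIC_ASM_15 (numbers 1148 to 1163) the median of 6 models was at most 0.061 CPM in the PF libraries and 2.94 and 2.23 CPM at day 8. Both day 8 libraries lay above all 4 PF libraries for all 7 models of the first run, all 7 of the second and 5 of the 6 of the third, against 24.3% of all models. These runs were chosen for their increase, so nothing is read from those counts. Near-identical neighbours can share reads in estimated counts, so single models within a run are uncertain. Runs on HIC_ASM_10 (1293 to 1304) and HIC_ASM_3 (1040 to 1050) held 8 models each, with median log2 fold changes of 2.90 and 1.87.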

How the data were processed

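Per the labels' protocols, an NEBNext Ultra kit was used to turn total RNA into RNA-seq libraries, and the submitters' processing notes name kallisto, with version, index and genome build not given in the sources used here. The deposited estimated counts (3.17% to 4.49% of them not whole) were rounded to whole numbers. The deposited TPM values, which the authors' tool scaled to effective length and library total per the file headers, served only as alternatives. The deposited lengths are referred to as coding lengths because 91.6% of them can be divided by 3. Of 22924 models 17225 passed edgeR's filterByExpr. EdgeR 4.0.16 (R 4.3.3) was run with TMM scaling and quasi-likelihood tests over all 25 libraries in 12 groups (13 residual degrees of freedom), contrasting day 8 with the mean of LB PF and XR PF. Benjamini-Hochberg adjustment covered all models tested, and calls were made below an adjusted p of 0.05. Limma 3.58.1 was run on log2(TPM + 1) and log2(TPM + 0.1), and DESeq2 1.42.0 on the counts. Precision rests on 2 libraries per group, and the floor of 3 counts covers counting error only.

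No model identifier matched the RefSeq table used (assembly ASM200744v3; 0 found), so marker lists were not applied and no sequence is shown. The 2 models named per direction were those called, with both day 8 libraries outside the PF range and at least 4 counts in each of the 6 libraries, that had the largest difference in mean CPM. Members, lists and rules were chosen with earlier results of these data known. Alternatives changed the scaling, filter, tool, unit, libraries in the fit, replicate block, effective-length offsets, fold threshold and left-out replicate. Single PF libraries as the reference, a correction for the coding-length trend and a covariate for the first component of replicate deviations, and the counts without a test after leaving out each library, were added after seeing the data. The test was checked on simulated counts.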

Additional observations from a re-analysis of the deposited data

Results flagged for a closer look

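The change at day 8 differed between LB PF and XR PF as the reference for 2501 models, by the test of LB PF against XR PF (edgeR, adjusted p below 0.05). Without XR PF replicate 2 the number was 1025 and without XR PF replicate 1 it was 4720. The model evm.model.HIC_ASM_13.784 was among the 2501, LB PF minus XR PF being -1.78 on the log2 scale (edgeR adjusted p = 0.0127). The groups of 2 libraries are too small for a test of single outlying libraries.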

How the results depend on the processing

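No log2 fold change of the 4 named models against PF changed direction in the 20 alternatives run on each. With only the 6 libraries in the fit, calls numbered 4232 against PF (2318 higher, 1914 lower) and 4590 against LB PF. They numbered 1883 against XR PF and 265 for LB PF against XR PF. That fit has fewer residual degrees of freedom and takes its spread from PF and day 8 alone. Which of these lowered the counts was not tested. Testing against a 2-fold change (glmTreat) gave 3545 calls (1904 higher, 1641 lower), and XR PF replicate 2 alone as reference gave 3505. Leaving out 1 library at a time gave 4741 to 9743 calls against PF, 5867 to 8921 against LB PF, 2691 to 7685 against XR PF and 1025 to 4720 for LB PF against XR PF. The lowest counts against PF and LB PF came without day 8 replicate 1, which also gave 2743 against XR PF. For LB PF against XR PF, 4539 models were called without LB PF replicate 1 and 1474 without replicate 2. The list new at day 8 held 547 models at a floor of 10 counts and 59 at 5 CPM, and the list lost at day 8 held 277 and 3. Without 1 library at a time these lists held 246 to 302 and 38 to 180 models, and 8298 to 10916 models lay outside the PF range.

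Calls against PF numbered 8942 with RLE size factors, 9154 with DESeq2, 8684 without the filter, 8687 on log2(TPM + 1), 8730 on log2(TPM + 0.1), 8831 with effective-length offsets, 8808 with the length-trend correction and 10326 with the covariate. The share called higher was 28.8% and 30.2% on the TPM scales and 45.7% to 57.5% elsewhere.

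With the replicate number as a block the counts were 8736, 9039, 6106 and 2399, and the 4 named models kept their calls. The numbers do not pair the libraries: replicate 1 minus 2 correlated at 0.0067 between day 8 and LB PF, -0.54 between day 8 and XR PF and -0.026 between LB PF and XR PF.

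The model evm.model.HIC_ASM_13.784 lost its call in 5 of 20 alternatives: the 6 libraries alone (adjusted p = 0.0644), log2(TPM + 0.1) (0.0513), no day 8 replicate 1 (0.0657), and XR PF replicate 1 (0.143) or replicate 2 (0.784) alone as reference, by edgeR or limma. The model evm.model.HIC_ASM_15.1231 lost its call against XR PF replicate 2 alone. The cause was not tested. A group left with 1 library is taken to have the spread of the rest. Depth limits the models at the floor, where 3 counts are 0.242 to 0.376 CPM.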
